A study of Mus musculus with 8 samples.

Results

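The contractile and SRF actin target genes comprised 10 genes chosen by symbol: the actins Acta2, Actg2 and Actc1, the actin-binding proteins Tagln, Cnn1, Tpm1, Flna and Vcl, and the myosin subunits Myl9 and Myh9. All probes that the platform annotation gave to these symbols were taken, which was 19 of the 46632 probes on the array, for 9 of the 17711 genes with a probe. Myl9, the regulatory light chain of smooth muscle myosin, had no probe under its symbol or its Entrez identifier. A probe was above background on an array when its detection p-value, set against the negative control beads, was under 0.05. By that measure 14 of the 19 probes were above background on all 8 arrays and 5 on none, so 8 of the 10 genes were measured.

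The arrays held total RNA of primary mouse embryonic palate cells, grown at passage P1 from palatal shelves at day E13.5 on a CBA;C57BL6 N2 background. The induced cells had received 2 ug/ml of ephrin-B1, clustered beforehand and given as an Fc fusion, for 60 min, and the uninduced cells were the control. There were 4 arrays in each group, numbered 1 to 4 in both. The labels do not say whether the uninduced cells were given the clustering reagent alone, or whether the replicates came from separate cultures, so p-values measure the spread between these arrays, which may be technical. In cultures of mixed cells, fewer cells of a type and less RNA per cell cannot be told apart.

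Serum response factor, SRF, is a transcription factor that binds the CArG box of promoters of muscle and cytoskeletal genes. Cofactors of the MRTF family bind monomeric actin, and when actin assembles into filaments they are released, enter the nucleus and act with SRF on genes such as those described here. Ternary complex factors, which are ETS proteins activated by ERK, act with SRF on a different set, the early response genes. EphB receptors, which ephrin-B1 binds, are known to signal to the cytoskeleton, so the comparison asks whether the contractile genes changed at the RNA level within the hour.

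The promoters of the actin and vinculin genes show what such a box looks like in these members, with Srf, itself an SRF target, beside them. They come from RefSeq windows of build GRCm38.p6 that run from 250 bases before to 50 bases after each gene's start, on the strand of the gene, and 8 of the 10 members, all but Tagln and Actg2, matched such a window. Capitals mark each match to the CArG box on either strand, exact or with 1 letter off. Overlapping matches were counted separately.
Acta2 (chr19:34255383-34255472, minus strand): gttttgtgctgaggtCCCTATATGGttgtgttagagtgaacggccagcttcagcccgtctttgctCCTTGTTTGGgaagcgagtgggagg
Actc1 (chr2:114052898-114053065, minus strand): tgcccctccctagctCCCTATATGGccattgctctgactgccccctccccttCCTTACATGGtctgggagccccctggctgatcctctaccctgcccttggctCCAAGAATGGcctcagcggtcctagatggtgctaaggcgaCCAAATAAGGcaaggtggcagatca
Vcl (chr14:20929156-20929195, plus strand): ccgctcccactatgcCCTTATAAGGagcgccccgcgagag
Srf (chr17:46556177-46556259, minus strand): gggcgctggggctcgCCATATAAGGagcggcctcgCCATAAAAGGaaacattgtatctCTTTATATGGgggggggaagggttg

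An exact box stood in the windows of 3 of the 8 members, Actc1, Myl9 and Vcl, and in those of 1.81% of the 27025 genes with a window, or 1.63% of all 32851 windows. With 1 letter off allowed, 6 of the 8 members had a match, the others being Acta2, Tpm1 and Flna, against 23.8% of genes, or 21.1% of all windows. The window of Actc1 held 4 matches, of which the exact one began 47 bases before the start, and that of Acta2 held 2, at 84 and 34 bases before the start. In Vcl the exact box began 227 bases before the start. No match was found in these windows for Cnn1 and Myh9. The members were chosen as contractile genes and SRF targets, so these shares cannot test whether boxes are more common in them. A match is a stretch of letters and not a measured site.

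No member passed the test for a change after 60 min of ephrin-B1. In limma without a block, 0 of the 8 measured genes had a Benjamini-Hochberg adjusted p under 0.05, where 3 of all 9396 genes tested did, or 0.0319%. The adjusted p was 0.9998 for each of the 8. At an unadjusted p under 0.05 the count was 0 of 8, against 1.27% of all genes. None of the 14 measured member probes was called either, against 0.0182% of the 16514 probes kept, and the induced and uninduced arrays overlapped for all 14. They did not overlap for 1.01% of the probes kept. The median difference of the 8 genes was -0.013 on the log2 scale (induced minus uninduced), beside -0.0014 for all genes. Taken within each pair of arrays, the members' median was -0.035, 0.0029, -0.045 and -0.031 in pairs 1 to 4 (SD 0.021). When arrays were scaled to a common median, the median was 0.016 for the 8 genes and 0.011 for all genes. The median size of a member's difference, without its sign, was 0.043, beside 0.062 over all genes.

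Replicate numbers marked shared variation, so the same comparison within pairs was more precise. With the replicate number as a block, 0 of the 8 members and 54 of all genes (0.575%) were called by limma, and the members with an unadjusted p under 0.05 were Myh9, Flna and Vcl, or 3 of 8 where 8.73% of all genes had one. That count was 1 of 8 when the arrays were scaled to a common median and blocked, a combination chosen after seeing the data. It was 1 of 8 without replicate 3 or without replicate 4, and 3 of 8 without replicate 1 or without replicate 2. With the slide as a block, 0 members and 0.16% of all genes were called, and Myh9 alone among the members had an unadjusted p under 0.05, against 4.87% of all genes. At the level of probes, 0 of 14 were called with either block, against 0.327% of kept probes with the replicate block and 0.0848% with the slide block. The 95% intervals of the 8 differences lay between 0.824-fold and 1.13-fold in the fit with the replicate block, and between 0.545-fold and 1.97-fold without it, where Actc1 was the widest. A p above the threshold does not show that a gene was level, and these intervals give the size of change that the data still allow.

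**Figure D1:**
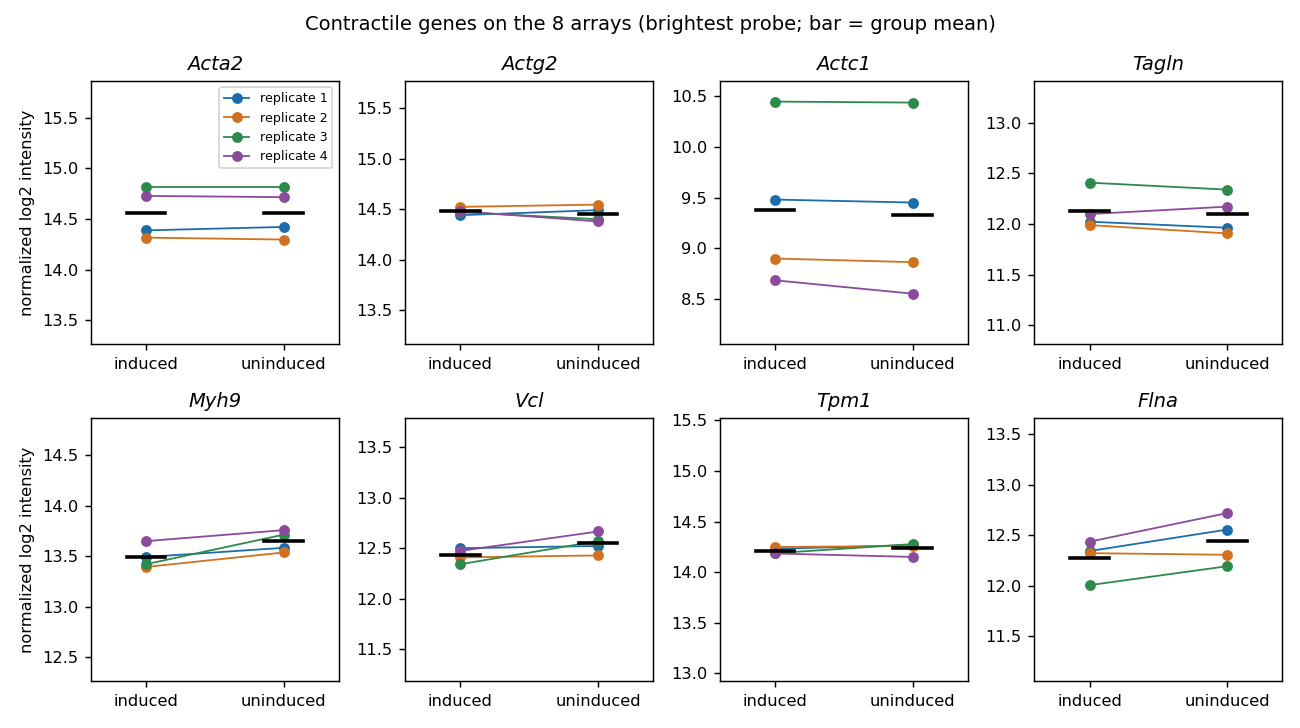
Normalized log2 intensity (vertical axis, each panel spanning the same range) of the brightest probe of the 8 measured genes in induced cells (left) and uninduced cells (right). Points joined by a line share a replicate number and black bars are group means. Most lines run nearly level, the points of Actc1 spread most, and those of Myh9 and Vcl all lie lower in induced cells than their partners.

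Acta2, the smooth muscle alpha-actin that also marks myofibroblasts, had nearly the same mean in both groups. Its brightest probe had 14.39, 14.32, 14.82 and 14.73 log2 intensity in induced replicates 1 to 4, against 14.42, 14.30, 14.82 and 14.72 in uninduced replicates 1 to 4. Replicates 3 and 4 were high and replicates 1 and 2 low in both groups, and the groups overlapped almost wholly. The means were 14.56 ± 0.25 in induced and 14.56 ± 0.24 in uninduced cells (SD, n = 4 each), a difference of -0.0006 with a standard error of 0.14. With the replicate block the 95% interval of the Acta2 difference was -0.10 to 0.10 (limma, adjusted p = 0.9996). In replicate 3 the probe held the same rank, 9 from the top, on both arrays, and quantile normalization therefore gave it the same value on both. As deposited, its intensity ranged from 19003.2 to 29242.4 over the 8 arrays, near the top of the scale, where whether the signal was compressed was not tested.

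The other measured probes of Acta2 differed by more than the brightest, each by less than its standard error. The next in brightness had 13.68, 13.65, 14.21 and 14.11 in induced cells, against 13.71, 13.74, 14.11 and 14.02 in uninduced cells, a difference of 0.02. A further probe differed by 0.0017, and a dim one, at 6.09 ± 0.27 in induced and 5.98 ± 0.23 in uninduced cells (SD, n = 4 each), by 0.11 with a standard error of 0.17. The remaining Acta2 probe was above background on no array.

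Actg2, the smooth muscle gamma-actin, was steady across arrays as well as between groups. It had 14.44, 14.52, 14.47 and 14.48 in induced replicates 1 to 4, against 14.49, 14.55, 14.40 and 14.38 in uninduced replicates 1 to 4. The induced arrays lay inside the range of the uninduced ones, and the induced array was the higher in 2 of 4 pairs. The difference was 0.02 (limma without a block, standard error 0.062, 95% interval -0.11 to 0.16). As deposited, the intensity of Actg2 was 19710.8 to 24859.4, near the top of the scale like that of Acta2, and compression was not tested. The coding sequences of the muscle actins are nearly identical, and whether the probes for Acta2, Actg2, Actc1 and the skeletal muscle actin Acta1 detect each other's transcripts was not tested.

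Actc1, the cardiac alpha-actin, which is also made in embryonic skeletal muscle, varied most of the members, but between replicate numbers and not with induction. It had 9.48, 8.90, 10.45 and 8.68 in induced replicates 1 to 4, against 9.45, 8.86, 10.44 and 8.55 in uninduced replicates 1 to 4. Replicate 3 was the highest and replicate 4 the lowest in both groups, and every induced array was above its partner by 0.13 or less. The means were 9.38 ± 0.79 in induced and 9.33 ± 0.83 in uninduced cells (SD, n = 4 each), and the difference was 0.05 with a standard error of 0.42 without a block and 0.058 with the replicate block, where the limma adjusted p was 0.855. As a share of all genes, 7.57% were higher in 4 of 4 pairs. A second, dimmer probe of Actc1 had 7.54, 7.45, 8.48 and 6.52 in induced cells, against 7.63, 7.35, 8.19 and 6.84 in uninduced cells, with the same arrays highest and lowest and a difference of -0.004 (standard error 0.38).

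Between replicate numbers the mean of Actc1 spanned 1.83 on the log2 scale, which was at the 99.9th percentile of the 9396 genes, whose median span was 0.35. Its means fell in the order 3, 1, 2, 4 from high to low, an order shared by 218 genes, or 2.32% of all. Of 15 striated muscle markers, 13 had a probe and 3 were above background on enough arrays to be tested, Acta1 and the troponins Tnnt2 and Tnnc1, and all 3 followed that order. Acta1 had 9.93, 9.36, 10.14 and 9.21 in induced replicates 1 to 4, against 9.79, 9.43, 10.11 and 9.10 in uninduced replicates 1 to 4. Tnnc1 had 10.37, 9.90, 10.84 and 9.42 in induced cells, against 10.24, 9.86, 10.85 and 9.56 in uninduced cells.

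The defining factors of skeletal muscle, Myod1 and Myf5, were above background on no array, as were Des, Chrna1, Ckm, Nkx2-5 and Myh6. Myog and Myh8 were above background on 1 array and Ttn on at most 2. The summed linear level of the measured striated markers ran from 1687 to 3758 over the induced arrays and from 1787 to 3740 over the uninduced arrays. The part of cells of that kind in the level of Actc1 was not tested. Replicates 3 and 4, at opposite ends for Actc1, shared a slide, and replicates 1 and 2 each lay on a slide of their own, both groups of a number together.

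**Figure D2:**
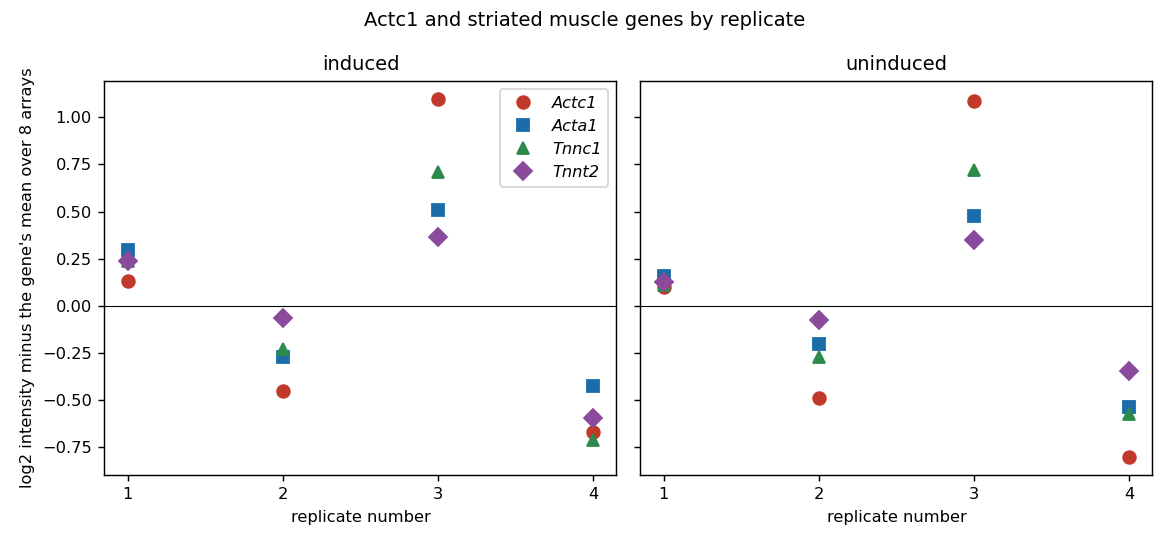
Log2 intensity minus each gene's mean over the 8 arrays (vertical axis) for Actc1, Acta1, Tnnc1 and Tnnt2 by replicate number, with induced cells on the left and uninduced cells on the right. All 4 genes are highest in replicate 3 and lowest in replicate 4 in both panels, and Actc1 has the widest spread, with a span of its replicate means of 1.83.

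Tagln, known as SM22-alpha, is an actin-binding protein of smooth muscle and a much-used reporter of MRTF and SRF activity. It had 12.02, 11.99, 12.41 and 12.10 in induced replicates 1 to 4, against 11.96, 11.91, 12.34 and 12.17 in uninduced replicates 1 to 4. Replicate 3 stood highest in both groups, and the induced array was higher in 3 of 4 pairs. The means of 12.13 ± 0.19 in induced and 12.10 ± 0.20 in uninduced cells (SD, n = 4 each) differed by 0.03, with a 95% interval of -0.07 to 0.14 in the fit with the replicate block. The replicate means of Tagln and Acta2 followed the same order, 3, 4, 1, 2, as did 7.01% of all genes. A second probe of Tagln was above background on no array.

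Cnn1, calponin, is a late marker of differentiated smooth muscle, and its only probe was not above background on any array. Its deposited intensity was 64.8 to 79.9, where the median of all probes was 69.6 to 75.9 per array, so no change of Cnn1 could be measured here. Among 10 further smooth muscle markers, 5 were above background on all 8 arrays, namely Myh11, Smtn, Lmod1, Mylk and Itga8, while Des, Synpo2, Pln and Kcnmb1 were on none. Their summed linear level was 2404 to 2636 in induced and 2555 to 2799 in uninduced cells, and none of the 6 that were tested was called in any of the 3 fits. Of 10 palatal mesenchyme markers, 8 were above background on all arrays, and Tbx22 and Pax9 on none. Some markers of other cells were also above background on all arrays: 2 of 10 epithelial, 1 of 8 endothelial, 2 of 10 macrophage and 3 of 6 pericyte markers, of which none was called in any fit.

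Tpm1, a tropomyosin that runs along actin filaments, had the narrowest spread of the members in induced cells. It had 14.23, 14.25, 14.19 and 14.18 in induced replicates 1 to 4, against 14.27, 14.26, 14.28 and 14.15 in uninduced replicates 1 to 4. Uninduced replicate 4 was the lowest of all 8 arrays, and 3 of 4 pairs were lower in induced cells. The difference was -0.03 with a standard error of 0.060 and a 95% interval of -0.16 to 0.11 (limma without a block). Its deposited intensity, 17710.4 to 20683.5, was also near the top of the scale, where compression of the signal was not tested.

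Myh9, the heavy chain of non-muscle myosin IIA, which drives contraction in cells that are not muscle, was lower in the induced array of every pair, though it did not pass the test. It had 13.49, 13.39, 13.42 and 13.65 in induced replicates 1 to 4, against 13.58, 13.54, 13.71 and 13.76 in uninduced replicates 1 to 4. Induced replicate 4 was above uninduced replicates 1 and 2, so the groups overlapped. The means were 13.49 ± 0.11 in induced and 13.65 ± 0.10 in uninduced cells (SD, n = 4 each), 1.12-fold lower on induction, with a log2 difference of -0.16 and a 95% interval of -0.33 to 0.02. In the fit with the replicate block the interval was -0.27 to -0.05 and the limma adjusted p was 0.298. Within the slide that held replicates 3 and 4 the difference was -0.20. Of all genes, 8.38% were lower in 4 of 4 pairs.

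The second measured probe of Myh9 went the other way. This dim probe had 5.95, 6.02, 5.76 and 5.90 in induced cells, against 5.67, 5.86, 5.77 and 5.59 in uninduced cells. It was higher in 3 of 4 pairs, with a difference of 0.18 and a standard error of 0.12. The mean of both probes differed by 0.012, so that the direction for Myh9 rests on its bright probe.

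Vcl, vinculin, links actin to integrins and cadherins at adhesions, and it too was lower in the induced array of every pair. It had 12.50, 12.41, 12.34 and 12.47 in induced replicates 1 to 4, against 12.52, 12.43, 12.57 and 12.67 in uninduced replicates 1 to 4. In replicates 1 and 2 the gap was 0.022 and 0.019, and nearly all of the difference lay in replicates 3 and 4, where it was 0.23 and 0.19 and whose 4 arrays lay on the same slide. The means were 12.43 ± 0.071 in induced and 12.55 ± 0.099 in uninduced cells (SD, n = 4 each), a difference of -0.12 with a limma adjusted p of 0.537 in the fit with the replicate block. Before normalization the induced array of replicate 2 was the brighter, at 4771.2 against 4538.8 in its uninduced partner.

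Flna, filamin A, crosslinks actin filaments and anchors them to membrane proteins. It had 12.34, 12.32, 12.01 and 12.44 in induced replicates 1 to 4, against 12.56, 12.31, 12.19 and 12.72 in uninduced replicates 1 to 4. Replicate 4 was highest in uninduced cells and in induced cells alike, and 3 of 4 pairs were lower on induction. The means of 12.28 ± 0.19 in induced and 12.44 ± 0.24 in uninduced cells (SD, n = 4 each) differed by -0.17, with a 95% interval of -0.44 to 0.11 without a block and -0.28 to -0.05 with the replicate block, where the limma adjusted p was 0.316. Its dim second probe differed by -0.07 with a standard error of 0.13.

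**Figure D3:**
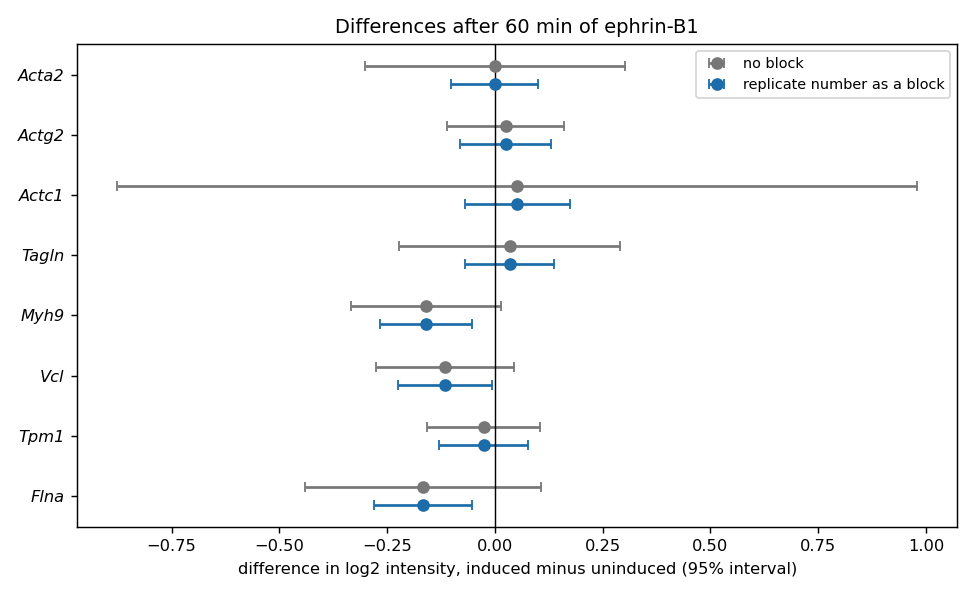
Difference in log2 intensity, induced minus uninduced (horizontal axis), with 95% intervals from limma for the 8 measured genes, without a block (grey) and with the replicate number as a block (blue). All grey intervals contain 0, and the blue intervals of Myh9, Vcl and Flna lie below 0, none with an adjusted p under 0.05.

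The variation of each member over the 8 arrays was split by replicate number and by induction. Both groups of a number lay on the same slide, so the replicate share includes any difference between slides, which was not split off. The replicate number took 99.8% of the sum of squares of Acta2, 99.7% of Actc1, 95.5% of Tagln and 75.7% of Flna. It took less in Tpm1 (64.0%), Actg2 (60.5%), Myh9 (48.6%) and Vcl (36.4%), and the median was 69.8% over the members, beside 75.5% over all genes. Induction took 41.2% for Myh9, 37.7% for Vcl and 16.8% for Flna, beside a median of 3.88% over all genes. For Actg2 and Tpm1 the share of induction was 5.30% and 8.96%. It was 0.0002% for Acta2, 0.14% for Actc1 and 1.03% for Tagln, and the median over the members was 7.13%. Such shares describe these arrays and carry no test.

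**Figure D4:**
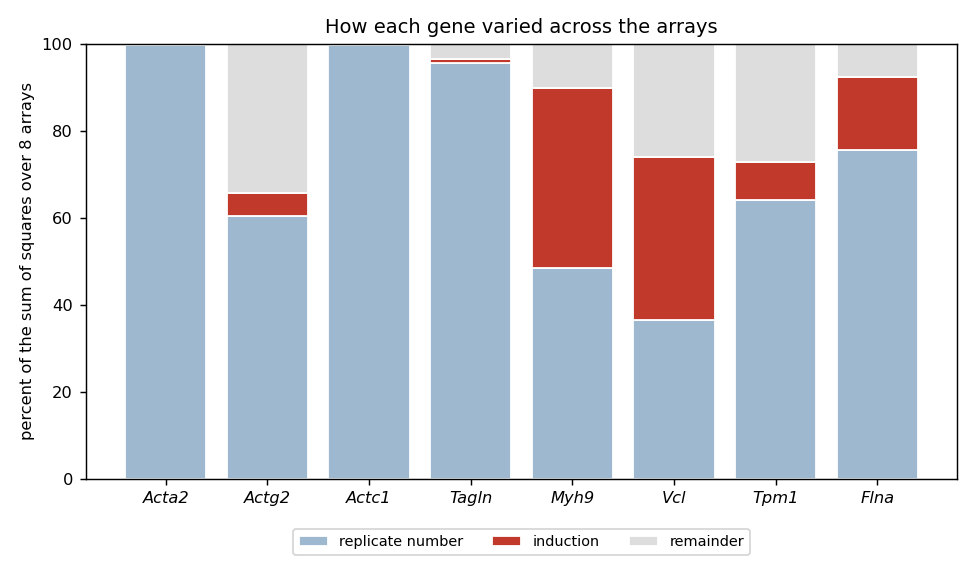
Percent of the sum of squares over the 8 arrays (vertical axis) that went with the replicate number, with induction and with the remainder, for each measured gene. The replicate number fills nearly the whole bar for Acta2, Actc1 and Tagln, and the share of induction is largest for Myh9, at 41.2%, and Vcl, at 37.7%.

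Beyond the members, 4 lists of genes around SRF, MRTF and actin were read in the same fit. Srf itself had 11.22 ± 0.053 in induced and 11.25 ± 0.11 in uninduced cells (SD, n = 4 each), and its cofactor Mrtfa 8.90 ± 0.15 in induced and 8.88 ± 0.10 in uninduced cells. Of 9 measured SRF and MRTF factors and cofactors, 0 were called, with 5 lower and 4 higher and a median of -0.021. With median scaling that median was 0.0057, where the median of all genes moved from -0.0014 to 0.011. Myocd, the SRF cofactor of smooth and cardiac muscle, had the lowest difference, -0.18 with a standard error of 0.15, at a signal above background on 5 of 8 arrays. Scai, an inhibitor of MRTF, had the highest, 0.06 with a standard error of 0.16. It was dim and lower in 3 of 4 pairs, and higher by 0.53 in replicate 1. Of 18 other actins, tropomyosins and actin regulators, 0 were called, with 9 lower and 9 higher and a median of -0.0036, against 0.034 with median scaling. Cald1, caldesmon, which binds actin and myosin, had the highest difference in these lists. It had 7.80, 7.44, 7.57 and 8.62 in induced replicates 1 to 4, against 7.21, 7.60, 7.49 and 7.71 in uninduced replicates 1 to 4. Induced replicate 4 stood highest and the groups overlapped, with a difference of 0.36, a 95% interval of 0.083 to 0.63 in the fit with the replicate block and a limma adjusted p there of 0.409, or 0.0689 with median scaling. Its other measured probes differed by 0.27 and 0.02. Smtn, smoothelin, was lowest in the list at -0.19 and lower in 4 of 4 pairs (limma with the replicate block, adjusted p = 0.223). Each count of 0 held in all 3 fits, those with a block for the slide or the replicate number included.

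The focal adhesion and actin crosslinking genes, which are the nearest in role to Vcl and Flna, had no call. Of 16 measured genes 14 were lower in the main fit, where 50.8% of all genes were lower, and the median difference was -0.035. With median scaling 11 were lower and the median was -0.020, beside a median of 0.011 for all genes. None was called in any of the 3 fits, and 6 had an unadjusted p under 0.05 with the replicate block against 8.73% of all genes. Tln1, talin, which binds both integrins and vinculin, had 8.86, 8.82, 8.34 and 8.76 in induced replicates 1 to 4, against 9.10, 8.81, 8.86 and 9.11 in uninduced replicates 1 to 4. The groups overlapped, 3 of 4 pairs were lower, and the difference of -0.27 had a limma adjusted p of 0.202 with the replicate block. Lasp1, an actin-binding protein of adhesions, had the largest value above 0, at 0.06.

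The list of early response genes, named for SRF with ternary complex factors, was the only one of the 4 with a call. It was chosen, as the others were, with earlier results of these data known. Of 8 measured genes 7 were lower in the main fit, where 50.8% of all genes were lower, and the median was -0.43. The count was 7 under each other scaling tried as well. Srf, at -0.026, is among the 8 and was also counted with the factors and cofactors above. Limma without a block called 0. Blocking on the slide gave 2 calls, Egr1 and Egr3, against 0.16% of all genes. Blocking on the replicate number gave 4, which were Egr1, Egr2, Egr3 and Cyr61, against 0.575% of all genes. Which cofactors act with SRF on the called genes in these cells, Cyr61 included, was not tested. Egr1, a zinc finger transcription factor, had 10.57, 10.46, 10.63 and 10.75 in induced replicates 1 to 4, against 11.15, 11.20, 11.46 and 11.07 in uninduced replicates 1 to 4, with no overlap, which 1.01% of the probes kept also showed. Its difference was -0.62 (limma with the slide block, adjusted p = 0.0110). Egr3 had the largest difference of the list, -0.88, while its dim second probe, above background on 6 of 8 arrays, differed by 0.26 with a standard error of 0.15. Fos had 7.81 ± 0.20 in induced and 7.78 ± 0.25 in uninduced cells (SD, n = 4 each), a difference of 0.02 with a standard error of 0.15.

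**Figure D5:**
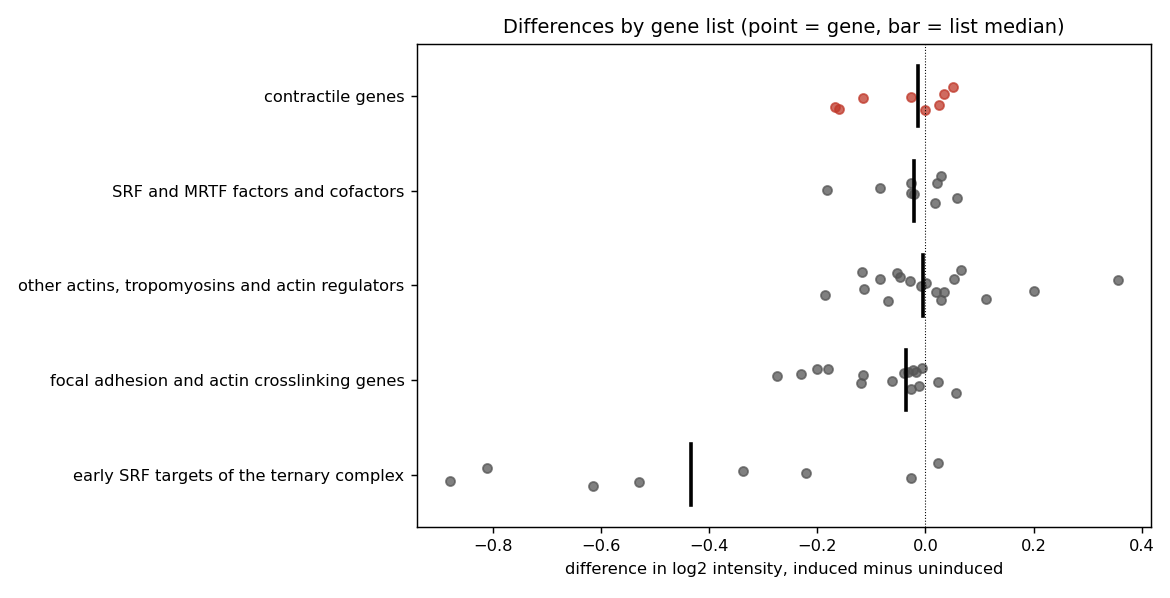
Difference in log2 intensity, induced minus uninduced (horizontal axis), of each measured gene in the contractile list (red, top row) and in the 4 lists of related genes (grey), with a bar at each median. The contractile genes lie between -0.17 and 0.05, Cald1 stands farthest to the right at 0.36, and the early SRF targets spread down to -0.88 with a median of -0.43.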

How the data were processed

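RNA of 8 samples was hybridised to single-colour Illumina bead arrays. The deposited table holds, per the file headers, a mean bead intensity on a linear scale and a detection p-value for each probe and array, and the submitters' processing notes name GenomeStudio 1.6.0. The authors also deposited a background-subtracted matrix of intensity values, whose array medians had a median of 4.4 and which served as an alternative. Its scale was linear, and its values had a Spearman correlation, per array, of at least 0.99998 with that array as exported and no more than 0.919 with the rest. Between 15303 and 17362 probes were above background per array, or 32.8% to 37.2%. With 4 arrays a group, their number limits the precision of each value. The build used by the authors is not given in the sources used here.

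Signals were background corrected and quantile normalized (normexp, taking the negative controls from the detection p-values, offset 16, then log2) in limma 3.58.1 under R 4.3.3. Probes above background on at least 4 arrays were kept (16514), each gene was read by its brightest kept probe (9396 genes, 2647 with more than 1), and lmFit with eBayes and a variance trend compared induced with uninduced arrays, two-sided, with Benjamini-Hochberg adjustment over all 9396 genes. The main fit has no block. Blocks for the replicate number and the slide, other normalizations, filters and probe rules, and each array left out were alternatives. The numbers pair the arrays by their data: deviations from the group means correlated at 0.625, 0.591, 0.716 and 0.620 for arrays of the same number, all above 0.1. Arrays of different numbers correlated at -0.538 to 0.300, of which the upper end also passed 0.1. Replicates 1 and 2 each lay on their own slide and 3 and 4 shared another. The fits were tested on simulated data.

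The members and the lists were chosen with earlier results of these data known. All members are described, with every measured probe. Of the lists, genes called in any of the 3 fits and the largest difference in each direction were named, with Srf and Mrtfa added for their role after their values were seen. A further list of related genes is not reported here.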

Additional observations from a re-analysis of the deposited data

Results flagged for a closer look

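In uninduced cells Tpm1 had 1 array apart from the other 3: replicate 4 was at 14.15, while the others lay between 14.26 and 14.28. The gap to the nearest array was 0.854 of the group's whole range, above Dixon's 95% critical value. Of 28 groups of 4 arrays tested over the 14 measured member probes, this was the only one, and chance gives about 1 in 20. Without that array the difference of Tpm1 was -0.058, against -0.026 with it, and was not called.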

How the results depend on the processing

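No member was called under any of the 25 alternatives, and no member probe under the 24 that tested probes. The lowest adjusted p of a member was 0.0936, for Flna with the replicate block and without replicate 2, and over the alternatives the limits of the differences were -0.25 and -0.076 for Flna, -0.21 and -0.017 for Vcl and -0.058 and -0.0054 for Tpm1. The number of genes called, 3 in all, was 54 with the replicate block, 56 with that block and median scaling, 15 with the slide block, 1 with median scaling, 1 on slides 1 and 2 alone and 0 on slide 3 alone. It was 1 to 2 without any 1 array, and 37, 41, 40 and 32 without pair 1, 2, 3 and 4 in the fit with the replicate block. Pathway list genes called, 0 in the main fit, were 4 with the replicate block, 5 with that block and median scaling, 2 with the slide block, and 0 to 5 with an array or a pair left out. The median difference of the members was 0.016 with median scaling, with or without the block, beside 0.011 for all genes. It was 0.018 with the mean of the probes, beside -0.0003 for all genes. It ran from -0.095 (without uninduced replicate 2) to -0.0043 with an array left out, and from -0.028 to -0.0031 with a pair left out.

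Differences of 5 members turned sign, and none of them was called. Acta2 was 0.038 with median scaling, 0.0041 in the authors' matrix, 0.031 with the mean of the probes and 0.0066 on slide 3 alone, and Myh9, -0.16 by its bright probe, was 0.012 with the mean of its probes, which run opposite ways. Actg2 was -0.041 on slides 1 and 2 alone and Tagln -0.0013 on slide 3 alone. With an array left out, Acta2 ran from -0.088 to 0.087, Actg2 from -0.0016 to 0.056, Actc1 from -0.30 to 0.42 and Tagln from -0.058 to 0.12. Acta2 was 0.0088 without pair 1 and Actg2 -0.0026 without pair 4. With a pair left out in the fit with the replicate block, Actc1 and Tagln kept their sign. Actc1 then ran from 0.025 to 0.066 and Tagln from 0.018 to 0.071. For the members other than Myh9 the cause was not tested. Dim signals limit Cnn1 and 4 other probes, which were above background on no array.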
